A study of Homo sapiens with 16 samples.

Results

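The insulin-like growth factor (IGF) genes described here are 1 ligand (IGF2), 6 binding proteins (IGFBP2 to IGFBP7) and 2 receptors (IGF1R and IGF2R). They were taken by gene symbol from a deposited table of 61806 genes, where all 9 were found, without a rule on their values. Their RNA was measured by poly(A) RNA sequencing in LX-2, an immortalised human line derived from hepatic stellate cells, which lay down scar matrix in the liver. The study asked how expression responds to TWEAK, a cytokine of the TNF family, and to loss of its receptor Fn14, encoded by TNFRSF12A. The 16 libraries form 4 groups of 4 replicates. TWEAK libraries came from wild-type cells given 100 ng/mL recombinant human TWEAK for 2 h. Fn14 knockout libraries came from cells in which CRISPR/Cas9 was aimed at total Fn14, and Fn14alpha knockout libraries from cells in which it was aimed at Fn14alpha. WT libraries came from wild-type cells. The knockouts and WT were given PBS for the same 2 h, so neither knockout was seen with TWEAK. Every group had first been cultured for 24 h in reduced-serum EBM-2 medium with EGM-2 MV supplements. Such supplements commonly include an IGF1 analogue, but the sources used here do not say that it was added. Nor do they say whether a knockout line is a clone or a pool, so a knockout cannot be told apart from other differences between the lines. The labels call the replicates biological without saying how they were separated, so the p-values measure the spread between these samples, which may be technical.

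IGF1 and IGF2 are secreted growth factors that signal through the receptor tyrosine kinase encoded by IGF1R. The IGF2 receptor, also the cation-independent mannose 6-phosphate receptor, takes up IGF2 for degradation in lysosomes and sorts lysosomal enzymes. The binding proteins hold IGFs in the extracellular space, lengthen their life and withhold or deliver them, and several are cut by proteases that free the ligand. In the liver, hepatocytes are the main source of circulating IGF1, and stellate cells and fibroblasts make binding proteins that also act on matrix and integrins.

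The total count per library ran from 13335919 to 16888606. The summed level of 11 stellate cell markers was 950 to 1024 FPKM (fragments per kilobase of exon, scaled to library size) in TWEAK libraries, 1141 to 1223 in Fn14 knockout, 613 to 629.8 in Fn14alpha knockout and 759.3 to 801.7 in WT libraries, where 9 of the 11 reached 1 FPKM. VIM was the largest part of this sum in every group. Of the 9 tested, 1 was higher with TWEAK, VIM, with a mean of 612.0 FPKM against 378.0 in WT. The sum was larger with TWEAK through VIM, and 1 marker, COL3A1, was lower (17.9 against 23.7 FPKM). In Fn14 knockout 6 were higher and 2 lower. In Fn14alpha knockout 1 was higher and 6 lower. Of all genes tested 6.87%, 52.9% and 42.2% were called in these comparisons, at a false discovery rate of 0.05. Among the 11, LRAT and DES, which mark quiescent or contractile stellate cells, had 2 and 73 counts over all 16 libraries. The markers of hepatocytes, endothelial cells and leukocytes summed to at most 3.12 FPKM in any library, with the hepatocyte gene TTR at 0 counts throughout. The 4 cholangiocyte markers summed to 11.3 to 12.8 FPKM in Fn14 knockout libraries, against 5.19 to 6.28 in WT, through SOX9. These cell markers moved with the groups, and their part in the results below was not tested. The targeted gene TNFRSF12A averaged 130.4 ± 7.07 FPKM in TWEAK, 33.6 ± 2.77 in Fn14 knockout, 59.3 ± 6.43 in Fn14alpha knockout and 128.1 ± 6.29 in WT libraries (SD, n = 4 each). Fn14 knockout replicate 1 and WT replicate 4 stood apart by gene length, with short genes high. Genes under 2000 exonic bases lay 0.27 and 0.18 above their group mean there (median, log2 scale), against -0.17 to 0.07 in the other 14 libraries. Genes over 8000 bases lay at -0.13 and -0.08. Fn14 knockout replicate 4, at -0.17 for short and 0.10 for long genes, was about as far off as WT replicate 4, in the other direction. It was kept where both libraries that stand apart were left out. IGFBP6 and IGFBP7, with 1346 and 1930 exonic bases, belong to the short class, and IGF1R and IGF2R, with 13941 and 22613, are long.

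The members lie apart in the genome except for IGFBP2 and IGFBP5, which sit side by side on chromosome 2 with 7668 bases between them. In the coordinates of the deposited table (GRCh38), IGFBP2 spans chr2:216632828-216664436 on the plus strand and IGFBP5 chr2:216672105-216695549 on the minus strand. IGFBP3 lies at chr7:45912245-45921874 (minus), IGFBP4 at chr17:40443450-40457725 (plus), IGFBP6 at chr12:53097436-53102345 (plus) and IGFBP7 at chr4:57030773-57110385 (minus). IGF2 lies at chr11:2129112-2158391 (minus), IGF1R at chr15:98648539-98964530 (plus) and IGF2R at chr6:159969082-160113507 (plus). RefSeq promoter sequence was at hand for 7 of the 9 genes, all but IGFBP7 and IGF2. The 250 bases before the start of 4 of them are printed, 5′ to 3′ on the gene's strand (GRCh38.p14). They are IGFBP5, the member with the largest rise in both knockouts, IGFBP4, the most abundant member, and both receptors, which moved in opposite directions. In all 4 the RefSeq start is also the start in the deposited table. The windows are chr2:216695550-216695799, chr17:40443200-40443449, chr15:98648289-98648538 and chr6:159968832-159969081. Capitals mark matches on either strand to the TEAD motif, the GC box and the TATA box. The AP-1 motif was searched too and had no match in these windows.
IGFBP5: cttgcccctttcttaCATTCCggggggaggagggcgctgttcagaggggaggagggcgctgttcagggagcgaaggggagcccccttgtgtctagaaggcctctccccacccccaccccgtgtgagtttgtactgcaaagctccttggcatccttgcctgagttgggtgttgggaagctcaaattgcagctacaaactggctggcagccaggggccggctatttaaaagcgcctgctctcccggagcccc
IGFBP4: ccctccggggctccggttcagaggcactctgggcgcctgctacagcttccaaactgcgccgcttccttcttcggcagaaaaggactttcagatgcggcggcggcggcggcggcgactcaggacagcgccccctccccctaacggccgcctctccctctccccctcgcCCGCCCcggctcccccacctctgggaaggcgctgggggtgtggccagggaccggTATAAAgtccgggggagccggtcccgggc
IGF1R: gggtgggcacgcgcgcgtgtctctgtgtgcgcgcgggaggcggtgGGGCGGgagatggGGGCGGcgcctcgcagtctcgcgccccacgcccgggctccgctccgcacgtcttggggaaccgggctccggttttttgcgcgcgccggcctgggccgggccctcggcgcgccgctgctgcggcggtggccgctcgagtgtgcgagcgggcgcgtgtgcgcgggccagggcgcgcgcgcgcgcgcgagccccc
IGF2R: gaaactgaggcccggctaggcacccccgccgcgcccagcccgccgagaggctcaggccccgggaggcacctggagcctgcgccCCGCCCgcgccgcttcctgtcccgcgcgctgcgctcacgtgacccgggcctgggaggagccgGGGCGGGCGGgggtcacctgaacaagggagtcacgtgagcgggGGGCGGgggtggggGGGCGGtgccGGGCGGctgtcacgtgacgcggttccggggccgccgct
The IGFBP5 window holds a match to GGAATG, the motif of the TEAD factors, on the other strand at bases -235 to -230 from the start and no GC box. The IGFBP4 window holds a TATA box, searched as TATAAA, at -29 to -24 and 1 GC box. GC boxes, searched as GGGCGG, number 2 in the IGF1R window and 6 in that of IGF2R, where the matches at -105 to -100 and -101 to -96 share 2 bases. Of 35116 RefSeq windows of this length, 11.9% hold a TEAD match, 42.6% a GC box, 10.7% a TATA box and 6.57% the AP-1 motif, searched as TGANTCA. A match is a description of these letters only, and the motifs were chosen with results of these data known.

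**Figure D1:**
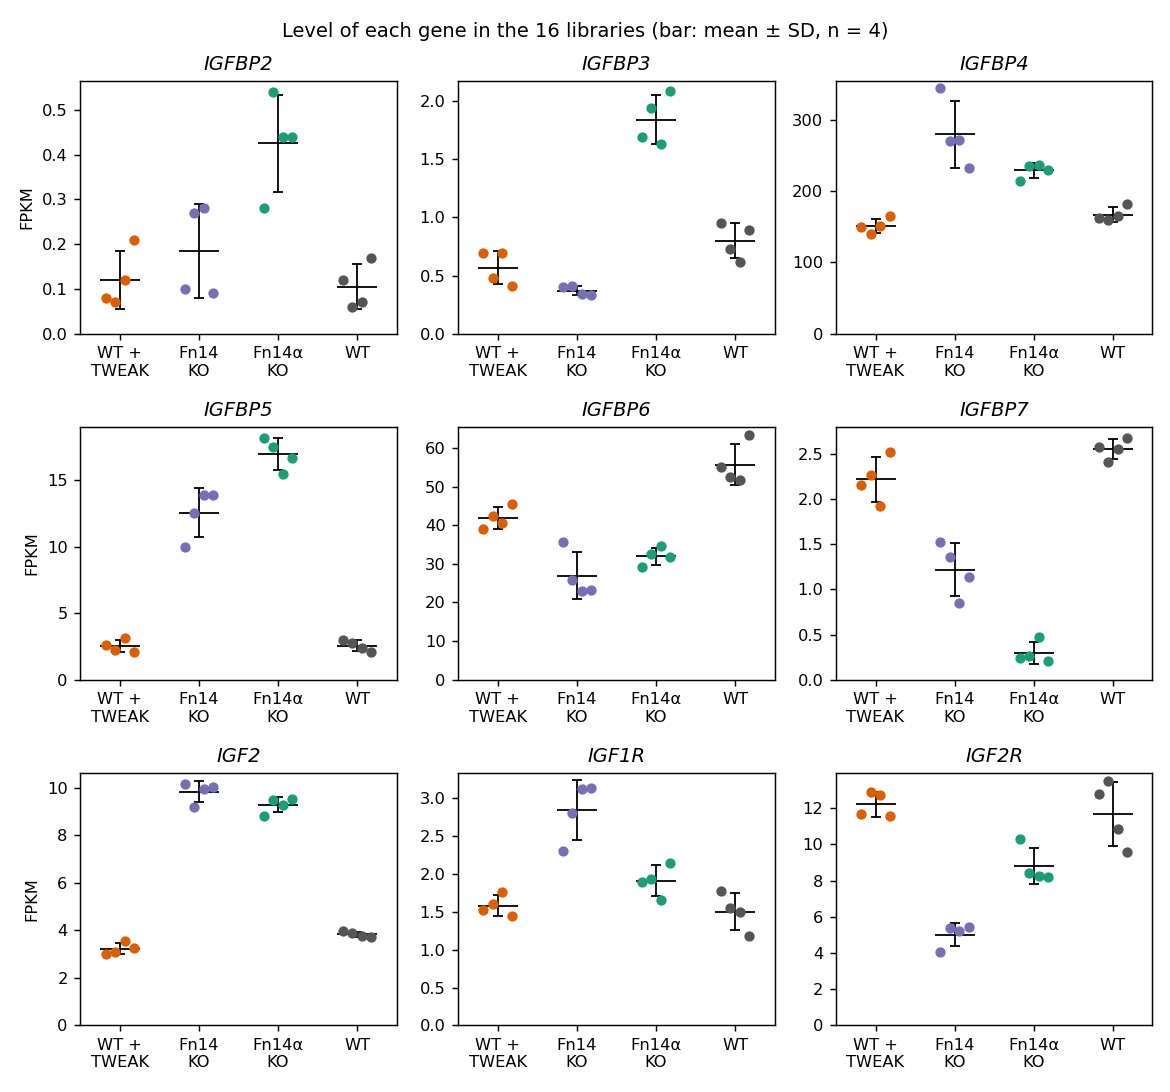
Level of each of the 9 genes in FPKM (vertical axes, each from 0), 1 point per library, for TWEAK, Fn14 knockout, Fn14alpha knockout and WT; bars give the mean ± SD (n = 4). IGFBP5 and IGF2 sit higher in both knockouts than in WT, and IGFBP3 and IGFBP7 set the knockouts apart from each other.

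All 9 genes passed the filter on low counts, and each was tested in a fit over 16029 genes (quasi-likelihood F test of edgeR, two-sided, called at a false discovery rate of 0.05). IGFBP2 exceeded the count floor of that filter in 1 TWEAK, 2 Fn14 knockout, 4 Fn14alpha knockout and 1 WT library. The filter asks for 4 libraries, which the 4 outside Fn14alpha knockout would also have met. IGFBP7 exceeded it in all 4 libraries of 3 groups and in 1 Fn14alpha knockout library. TWEAK called 1 member, IGFBP6, and it was lower; of all genes tested 6.87% were called in that comparison, 4.82% higher and 2.05% lower. In Fn14 knockout cells 4 members were higher, 4 lower and 1 not called, against 52.9% of all genes called (26.6% higher and 26.3% lower). Fn14alpha knockout cells had 6 members higher and 3 lower, against 42.2% of all genes called (22.2% lower and the rest higher). The median size of the log2 fold change over the 9 members was 0.15 for TWEAK, 0.98 for Fn14 knockout and 1.18 for Fn14alpha knockout. Over all genes tested the same median was 0.13, 0.33 and 0.26. The signed medians of the members were -0.08, 0.86 and 0.42, against -0.01, -0.01 and 0.01 over all genes. Each of the members' medians was the value of IGFBP4. In Fn14 knockout the members lay from -1.1 to -0.93 or from 0.86 to 2.41, so the median there is no shift shared by the members. Libraries of the 2 groups did not overlap in FPKM for 2 members with TWEAK, 8 in Fn14 knockout and 7 in Fn14alpha knockout; over all genes tested these shares were 17.4%, 44.0% and 39.6%. Scaling by total counts moved the median of all genes to -0.12 in Fn14 knockout minus WT and to -0.15 between the knockouts. With that scaling the share of calls that were higher became 43.9% for TWEAK, 36.0% for Fn14 knockout and 37.4% between the knockouts, against 70.2%, 50.2% and 51.9% with TMM. Both knockout comparisons and the TWEAK comparison share the WT libraries.

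**Figure D2:**
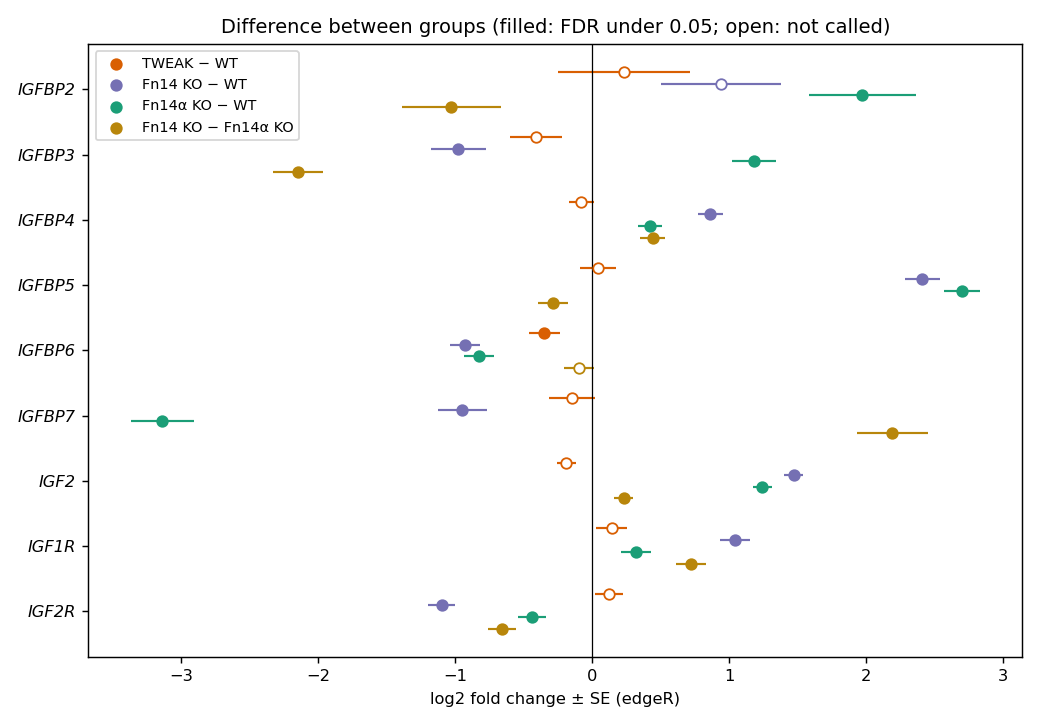
Log2 fold change ± SE from edgeR (horizontal axis) for each gene for TWEAK, Fn14 knockout and Fn14alpha knockout, each minus WT, and for Fn14 knockout minus Fn14alpha knockout. Filled points passed the false discovery rate of 0.05; the TWEAK points lie between -0.41 and 0.23, and those of the knockouts against WT between -3.14 and 2.70.

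IGF2, the only IGF ligand with reads, was higher in both knockouts. IGF1 had 0 counts in all 16 libraries, and insulin had none either. IGF2 read 3.02, 3.07, 3.56 and 3.27 FPKM in TWEAK libraries and 10.16, 9.18, 9.96 and 10.03 in Fn14 knockout libraries. It read 8.83, 9.47, 9.29 and 9.55 FPKM in Fn14alpha knockout libraries and 3.97, 3.89, 3.78 and 3.73 in WT libraries. Every knockout library lay above every WT library, and every TWEAK library lay below it. The log2 fold change was 1.47 ± 0.07 in Fn14 knockout (2.77-fold; adjusted p = 8.89e-15, edgeR) and 1.24 ± 0.07 in Fn14alpha knockout (2.36-fold; adjusted p = 7.21e-13, edgeR). With TWEAK it was -0.19 ± 0.07 (edgeR, adjusted p = 0.117), not called; with total-count scaling the value was -0.25 (edgeR, adjusted p = 0.032). IGF2-AS, an antisense gene that overlaps IGF2, had 23 counts in the TWEAK group, 155 in Fn14 knockout, 166 in Fn14alpha knockout and 60 in WT. The strand setting of the counting is not given, so reads of the 2 strands cannot be told apart. H19, the imprinted neighbour of IGF2, had 0 counts in all libraries.

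IGFBP4 and IGFBP6 made up nearly all binding protein RNA per length. IGFBP4, which holds IGFs until the protease PAPPA cuts it, read 150.26, 140.38, 150.57 and 164.7 FPKM in TWEAK libraries and 343.93, 269.92, 271.65 and 231.88 in Fn14 knockout libraries. Its Fn14alpha knockout libraries read 214.01, 235.31, 237.11 and 229.08 FPKM, and its WT libraries 161.85, 159.16, 164.86 and 182.27. All 8 knockout libraries lay above the WT libraries, and the highest was Fn14 knockout replicate 1. IGFBP4 rose by 0.86 ± 0.09 in Fn14 knockout (log2; 1.81-fold; edgeR, adjusted p = 1.92e-08) and by 0.42 ± 0.09 in Fn14alpha knockout (1.34-fold; edgeR, adjusted p = 0.000485). Genes around it on chromosome 17 moved the same way. The median log2 fold change of the 50 nearest tested genes on each side was 0.43 in Fn14 knockout and 0.33 in Fn14alpha knockout. With that median subtracted, the difference of IGFBP4 was 0.43 (edgeR, adjusted p = 0.000324) in Fn14 knockout and 0.09 (edgeR, adjusted p = 0.477) in Fn14alpha knockout. TWEAK gave -0.08 ± 0.09 (edgeR, adjusted p = 0.64).

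IGFBP6, a binding protein that prefers IGF2 over IGF1, was lower in all 3 groups than in WT. It read 39.09, 42.44, 40.6 and 45.63 FPKM in TWEAK libraries and 35.8, 25.93, 23.04 and 23.21 in Fn14 knockout libraries. Fn14alpha knockout libraries read 29.18, 32.66, 34.51 and 31.71 FPKM, and WT libraries 55.07, 52.52, 51.75 and 63.41. No library of the 3 groups reached the lowest WT library, and the highest libraries of Fn14 knockout and of WT were the 2 that stand apart by gene length. The log2 fold change with TWEAK was -0.35 ± 0.11 (1.28-fold lower; edgeR, adjusted p = 0.0486), with an exact permutation p of 0.0286 over the libraries (two-sided; the smallest that 4 against 4 allows). This call was lost when any 1 library of either group was left out (edgeR, adjusted p of 0.0529 to 0.167). Without both libraries that stand apart it was -0.28 (edgeR, adjusted p = 0.00501). IGFBP6 fell by 0.93 on the log2 scale in Fn14 knockout (SE 0.11; 1.9-fold; edgeR, adjusted p = 1.9e-07) and by 0.83 in Fn14alpha knockout (SE 0.11; 1.78-fold; edgeR, adjusted p = 1.57e-06). In Fn14alpha knockout cells the median over 617 genes of chromosome 12 was -0.47. With the median of its neighbours (-0.44) subtracted, IGFBP6 was at -0.39 (edgeR, adjusted p = 0.00762). In Fn14 knockout cells the neighbours were at -0.01.

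IGFBP5 had the largest rise of the 9 genes in both knockouts. It is a binding protein with a high affinity for extracellular matrix, and the serine protease HTRA1 can cut it. TWEAK libraries read 2.62, 2.26, 3.11 and 2.04 FPKM, and Fn14 knockout libraries read 9.97, 12.53, 13.84 and 13.85. Fn14alpha knockout libraries read 18.19, 17.47, 15.45 and 16.69 FPKM, and WT libraries 3.01, 2.77, 2.4 and 2.05. The 3 sets of libraries did not overlap: Fn14alpha knockout was above Fn14 knockout, and both were above WT, while TWEAK and WT overlapped. IGFBP5 rose by 2.41 ± 0.13 in Fn14 knockout (log2; 5.33-fold; edgeR, adjusted p = 4.63e-13) and by 2.70 ± 0.13 in Fn14alpha knockout (6.49-fold; edgeR, adjusted p = 2.4e-13). Neighbouring genes on chromosome 2 were at -0.01 and 0.01 in the same comparisons. The gene DIRC3-AS1, which overlaps IGFBP5 on the other strand, had 386 counts over all libraries. TWEAK gave 0.04 ± 0.13 (edgeR, adjusted p = 0.904).

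IGFBP2, next to IGFBP5 on the chromosome, was near the lower limit of detection. It had 6, 5, 9 and 13 counts in TWEAK libraries, 7, 21, 19 and 7 in Fn14 knockout, 20, 35, 30 and 31 in Fn14alpha knockout and 8, 5, 5 and 13 in WT. Each Fn14alpha knockout library exceeded each WT library, while the Fn14 knockout libraries split into a high and a low pair. The log2 fold change was 1.97 ± 0.39 in Fn14alpha knockout (3.91-fold; edgeR, adjusted p = 0.000268). It was 0.94 ± 0.44 in Fn14 knockout (edgeR, adjusted p = 0.0751). Without both libraries that stand apart the Fn14 knockout difference passed, at 1.5 (edgeR, adjusted p = 0.00719). Leaving out Fn14 knockout replicate 1, Fn14 knockout replicate 4 or WT replicate 4 alone also made it pass, with adjusted p (edgeR) of 0.0277, 0.0296 and 0.0282. TWEAK gave 0.23 ± 0.48 (edgeR, adjusted p = 0.825).

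IGFBP3 moved in opposite directions in the knockouts. It is the main IGF carrier of blood, and within the liver it is known from the non-parenchymal cells. TWEAK libraries read 0.69, 0.48, 0.69 and 0.41 FPKM, and Fn14 knockout libraries 0.4, 0.41, 0.34 and 0.33. Fn14alpha knockout libraries read 1.69, 1.94, 1.63 and 2.08 FPKM, and WT libraries 0.95, 0.73, 0.62 and 0.89. Fn14 knockout lay wholly below WT and Fn14alpha knockout wholly above it, on 22 to 142 counts per knockout library. IGFBP3 fell by 0.98 on the log2 scale in Fn14 knockout (SE 0.20; 1.97-fold; edgeR, adjusted p = 0.000198) and rose by 1.18 ± 0.16 in Fn14alpha knockout (2.26-fold; edgeR, adjusted p = 2.51e-06). The difference between the knockouts was -2.15 ± 0.18 (4.45-fold lower in Fn14 knockout; edgeR, adjusted p = 4.18e-10). TWEAK gave -0.41 ± 0.19 (edgeR, adjusted p = 0.206), with overlapping libraries. IGFBP1, which lies 18584 bases from IGFBP3, had 4 counts in all 16 libraries together.

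IGFBP7, a secreted relative that binds IGFs only weakly and associates with matrix, was lower in both knockouts. TWEAK libraries read 2.16, 2.27, 1.93 and 2.53 FPKM, and Fn14 knockout libraries 1.53, 1.36, 0.85 and 1.14. Fn14alpha knockout libraries read 0.24, 0.26, 0.47 and 0.21 FPKM, and WT libraries 2.58, 2.42, 2.56 and 2.68. Fn14alpha knockout, with 6 to 13 counts per library, lay wholly below Fn14 knockout, and Fn14 knockout wholly below WT. IGFBP7 fell by 0.95 on the log2 scale in Fn14 knockout (SE 0.18; 1.93-fold; edgeR, adjusted p = 8.85e-05) and by 3.14 in Fn14alpha knockout (SE 0.23; 8.8-fold; edgeR, adjusted p = 1.13e-10). The knockouts differed by 2.19 ± 0.26 (4.56-fold higher in Fn14 knockout; edgeR, adjusted p = 9.23e-08). TWEAK gave -0.15 ± 0.17 (edgeR, adjusted p = 0.654). POLR2B, which overlaps IGFBP7 on the other strand, had 62277 counts over all libraries.

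Taken as a pool, the binding protein RNA, most of it IGFBP4, was larger in both knockouts and shifted in its makeup. The summed FPKM of IGFBP2 to IGFBP7 ran from 187.9 to 215.5 in TWEAK, 270.5 to 391.7 in Fn14 knockout, 263.6 to 289.6 in Fn14alpha knockout and 217.7 to 251.5 in WT libraries. Both knockouts lay above WT in every library. TWEAK lay below it only narrowly, with its highest library at 215.5 and the lowest of WT at 217.7. FPKM is scaled to library size, and the median of all genes with TWEAK was -0.07 with total counts and -0.01 with TMM. IGFBP4, the largest part of the sum, was not called with TWEAK. The share of IGFBP4 was 74.7% to 77.1% in TWEAK, 85.7% to 87.8% in Fn14 knockout, 81.2% to 81.9% in Fn14alpha knockout and 72.4% to 74.2% in WT. IGFBP6 held 20.1% to 22.6% in TWEAK, 7.43% to 9.14% in Fn14 knockout, 11.1% to 11.9% in Fn14alpha knockout and 23.3% to 25.2% in WT. The share of IGFBP5 was 0.947% to 1.58% in TWEAK, 2.55% to 5.12% in Fn14 knockout, 5.33% to 6.9% in Fn14alpha knockout and 0.815% to 1.35% in WT. These shares are of RNA per exon length, not of protein, and in bulk RNA fewer cells of a type and less RNA per cell cannot be told apart.

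**Figure D3:**
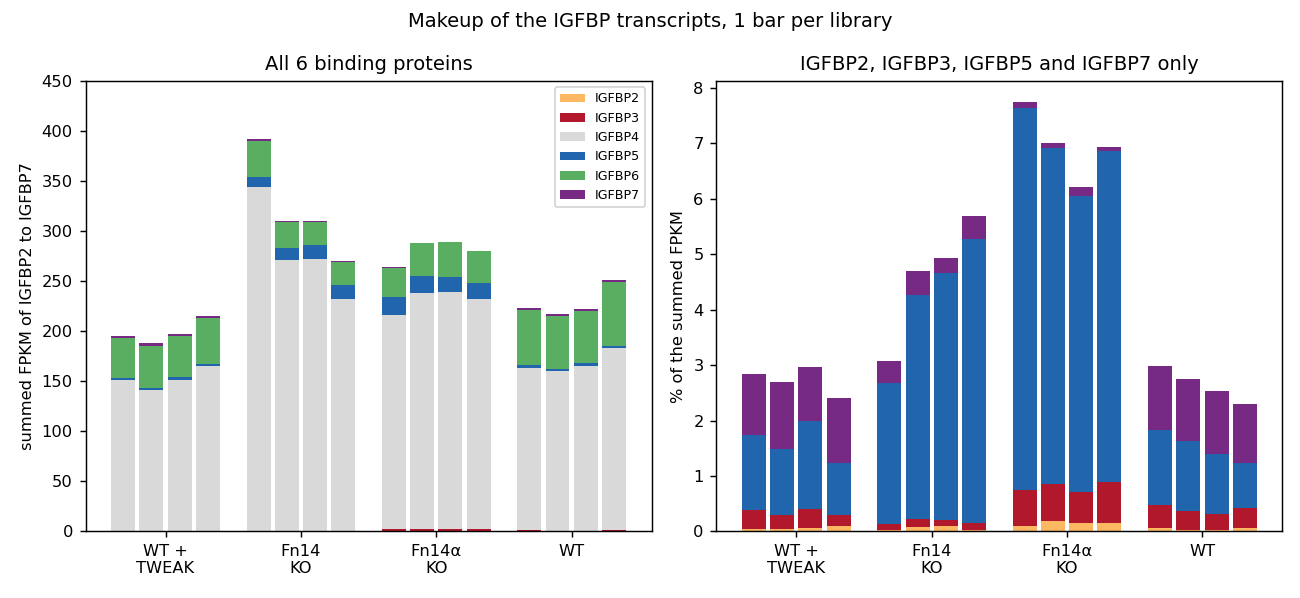
Summed FPKM of the 6 binding proteins (left) and the percent of that sum held by IGFBP2, IGFBP3, IGFBP5 and IGFBP7 (right), 1 stacked bar per library, replicates 1 to 4 from left to right, for TWEAK, Fn14 knockout, Fn14alpha knockout and WT. IGFBP4 (grey) fills most of every left bar; on the right IGFBP5 is the main part in both knockouts, and the IGFBP7 part is thinnest in Fn14alpha knockout.

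The receptors moved in opposite directions in the knockouts. IGF1R, the signalling receptor, read 1.52, 1.6, 1.76 and 1.44 FPKM in TWEAK libraries and 2.3, 2.81, 3.12 and 3.14 in Fn14 knockout libraries. Fn14alpha knockout libraries read 1.9, 1.93, 1.65 and 2.15 FPKM, and WT libraries 1.78, 1.55, 1.5 and 1.18. The Fn14 knockout libraries were the highest 4 of the 16, while Fn14alpha knockout overlapped WT. IGF1R rose by 1.04 ± 0.11 in Fn14 knockout (log2; 2.05-fold; edgeR, adjusted p = 3.05e-08). In Fn14alpha knockout it rose by 0.32 ± 0.11 (edgeR, adjusted p = 0.028). That call was lost without Fn14alpha knockout replicate 2 or 4 or WT replicate 3 or 4 (edgeR, adjusted p of 0.0575, 0.104, 0.0505 and 0.114). With the neighbours' median of 0.24 subtracted, IGF1R was at 0.07 there (edgeR, adjusted p = 0.654). TWEAK gave 0.14 ± 0.11 (edgeR, adjusted p = 0.539).

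IGF2R, the scavenging and sorting receptor, read 11.68, 12.88, 12.72 and 11.57 FPKM in TWEAK libraries and 4.08, 5.39, 5.19 and 5.41 in Fn14 knockout libraries. Fn14alpha knockout libraries read 10.27, 8.44, 8.27 and 8.21 FPKM, and WT libraries 12.77, 13.49, 10.83 and 9.6. The Fn14 knockout libraries were the lowest 4 of the 16, and 1 Fn14alpha knockout library lay within the WT range. IGF2R fell by 1.10 on the log2 scale in Fn14 knockout (SE 0.10; 2.14-fold; edgeR, adjusted p = 3.24e-09) and by 0.44 in Fn14alpha knockout (SE 0.10; edgeR, adjusted p = 0.00091). With the neighbours' median subtracted the Fn14alpha knockout value was -0.25 (edgeR, adjusted p = 0.0589). TWEAK gave 0.12 ± 0.10 (edgeR, adjusted p = 0.501). The ratio of IGF2R to IGF1R in FPKM was 7.23 to 8.05 in TWEAK, 1.66 to 1.92 in Fn14 knockout, 3.82 to 5.41 in Fn14alpha knockout and 7.17 to 8.7 in WT libraries. Neither knockout overlapped WT in this ratio, and TWEAK did. The ratio was not corrected for chromosomal neighbours, whose medians in Fn14alpha knockout were 0.24 around IGF1R and -0.19 around IGF2R.

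**Figure D4:**
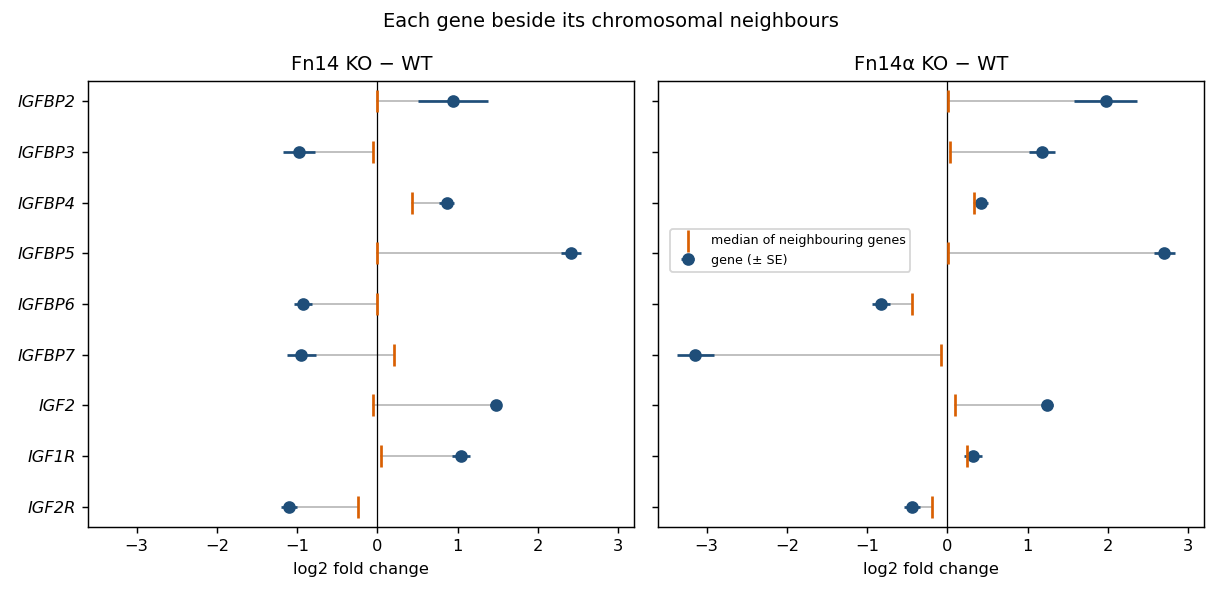
Log2 fold change ± SE of each gene (blue points) beside the median log2 fold change of its 50 nearest tested genes on each side (orange ticks), for Fn14 knockout against WT (left) and Fn14alpha knockout against WT (right). In Fn14alpha knockout the IGFBP4 and IGF1R points lie by their ticks and the IGFBP6 tick is at -0.44; the points of IGFBP2, IGFBP3, IGFBP5, IGFBP7 and IGF2 are far from theirs in both panels.

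Set directly against each other, the knockouts differed in 8 of the 9 genes, 4 higher and 4 lower in Fn14 knockout than in Fn14alpha knockout, against 59.2% of all genes called (30.7% higher and 28.5% lower). Libraries did not overlap for 5 of the 9, against 51.4% of all genes. IGFBP7 and IGF1R were higher in Fn14 knockout without overlap, IGF1R by 0.72 ± 0.11 (edgeR, adjusted p = 4.67e-06). IGFBP3 and IGF2R were lower without overlap, IGF2R at -0.66 ± 0.10 (edgeR, adjusted p = 5.07e-06). IGFBP5 was lower, at -0.29 ± 0.11 (edgeR, adjusted p = 0.0337), again without overlap. That call was lost without Fn14 knockout replicate 1 or 2 or Fn14alpha knockout replicate 1, 2 or 4 (edgeR, adjusted p up to 0.0946), and the value was -0.19 without Fn14 knockout replicate 1. IGFBP4 was higher by 0.44 ± 0.09 (edgeR, adjusted p = 0.000172), and its libraries overlapped. IGFBP2 was at -1.03 ± 0.36 with overlapping libraries (edgeR, adjusted p = 0.0169), a call lost without Fn14 knockout replicate 1 or 4 or Fn14alpha knockout replicate 2 (edgeR, adjusted p of 0.0524, 0.0698 and 0.0589). IGF2, with overlapping libraries, was higher by 0.23 ± 0.07 (edgeR, adjusted p = 0.00365) with TMM scaling and was at 0.08 (edgeR, adjusted p = 0.28) with total counts. IGFBP6 was at -0.10 ± 0.11 (edgeR, adjusted p = 0.479); without Fn14 knockout replicate 1 it passed, at -0.26 (edgeR, adjusted p = 0.0094). Its neighbours were at 0.42 in this comparison, and with that subtracted IGFBP6 was lower in Fn14 knockout, at -0.52 ± 0.11 (edgeR, adjusted p = 0.000513).

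In the order of levels per length, IGFBP4 and IGFBP6 came first and second in all 4 groups. In WT and TWEAK libraries IGF2R came next, at 11.7 ± 1.78 FPKM in WT, followed by IGF2 at 3.84 ± 0.108. IGFBP7 at 2.56 ± 0.107 and IGFBP5 at 2.56 ± 0.421 FPKM did not differ in WT beyond their spread (SD, n = 4). In the knockouts IGFBP5 followed IGFBP4 and IGFBP6 by its mean, at 12.6 ± 1.83 FPKM in Fn14 knockout and 16.95 ± 1.17 in Fn14alpha knockout. Then came IGF2, at 9.83 ± 0.443 FPKM in Fn14 knockout and 9.29 ± 0.322 in Fn14alpha knockout. The libraries of IGFBP5 and IGF2 overlapped in Fn14 knockout. In Fn14alpha knockout the libraries of IGF2 and IGF2R (8.80 ± 0.987) overlapped, as did those of IGF1R (1.91 ± 0.205) and IGFBP3 (1.84 ± 0.211). Last were IGFBP2 in TWEAK, Fn14 knockout and WT, and IGFBP7 in Fn14alpha knockout, where its libraries overlapped those of IGFBP2.

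The proteases that cut binding proteins, and the inhibitors of those proteases, were looked at as a list of 8 genes, of which 6 were tested. With TWEAK 0 were higher and 2 lower, in Fn14 knockout 2 were higher and 3 lower, and in Fn14alpha knockout 2 were higher and 2 lower. Of all genes 6.87%, 52.9% and 42.2% were called in these comparisons. The medians of the list's log2 fold changes were -0.19, -0.59 and -0.04. STC1 and STC2 encode stanniocalcins, which inhibit PAPPA. STC1 averaged 8.22 ± 0.361 FPKM in TWEAK, 4.6 ± 0.637 in Fn14 knockout, 3.02 ± 0.34 in Fn14alpha knockout and 15.1 ± 1.65 in WT libraries (SD, n = 4 each). Its log2 fold change was -0.82 with TWEAK, -1.59 in Fn14 knockout and -2.35 in Fn14alpha knockout (edgeR, adjusted p of 7.2e-07, 1.12e-12 and 6.94e-15). STC2 fell by 0.72 with TWEAK (edgeR, adjusted p = 1.27e-07) and rose by 0.87 ± 0.07 in Fn14 knockout and 0.66 ± 0.07 in Fn14alpha knockout (edgeR, adjusted p of 1.77e-10 and 4.22e-08). HTRA1 averaged 106.0 ± 12.8 FPKM in Fn14 knockout, 68.9 ± 3.77 in Fn14alpha knockout and 34.4 ± 1.16 in WT, a rise of 1.74 and 0.97 on the log2 scale (edgeR, adjusted p of 1.01e-14 and 8.81e-10). PAPPA itself, singled out after its values were seen, averaged 0.0775 ± 0.0236 FPKM in Fn14 knockout, 0.408 ± 0.0826 in Fn14alpha knockout and 0.38 ± 0.0825 in WT. Its log2 fold change against WT was -2.17 ± 0.23 in Fn14 knockout (edgeR, adjusted p = 3.57e-08) and 0.08 ± 0.18 in Fn14alpha knockout (edgeR, adjusted p = 0.757).

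Among 20 tested genes of 23 that act below the receptors, 2 were higher and 0 lower with TWEAK, 11 higher and 3 lower in Fn14 knockout, and 3 higher and 6 lower in Fn14alpha knockout. Over all genes the shares called were 6.87%, 52.9% and 42.2%, so the 9 of 20 in Fn14alpha knockout are near the share of all genes. The list's medians were 0.06, 0.22 and 0.03. IRS1 and IRS2 encode the docking proteins that IGF1R phosphorylates. IRS2 rose by 1.05 ± 0.08 in Fn14 knockout and by 1.32 ± 0.08 in Fn14alpha knockout (edgeR, adjusted p of 2.16e-10 and 8.85e-12). IRS1 rose by 1.12 ± 0.11 in Fn14 knockout (edgeR, adjusted p = 7.96e-09). FOXO1, a transcription factor that AKT holds out of the nucleus, averaged 1.03 ± 0.0392 FPKM in Fn14 knockout, 2.53 ± 0.086 in Fn14alpha knockout and 1.12 ± 0.146 in WT. It rose by 1.14 ± 0.11 in Fn14alpha knockout (edgeR, adjusted p = 1.22e-08), where FOXO4 fell by 1.65 (SE 0.19; edgeR, adjusted p = 1.26e-07). FOXO3 rose by 0.41 ± 0.07 with TWEAK (edgeR, adjusted p = 0.00028) and by 0.95 ± 0.07 in Fn14 knockout (edgeR, adjusted p = 3.88e-11). PTPN1, a phosphatase of the insulin and IGF1 receptors, rose by 0.31 ± 0.07 with TWEAK (edgeR, adjusted p = 0.00392). PIK3R3, a regulatory subunit of PI3 kinase, was higher by 1.01 ± 0.12 in Fn14 knockout than in Fn14alpha knockout (edgeR, adjusted p = 1.24e-07). FOXO4 was higher there by 0.95 ± 0.20 (edgeR, adjusted p = 0.000248). With its chromosomal neighbours' median subtracted, FOXO4 was at 0.05 between the knockouts (edgeR, adjusted p = 0.852).

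Only 2 of 8 other IGF family genes were tested, INSR and KAZALD1. INSR, the insulin receptor, which can pair with IGF1R, averaged 0.823 ± 0.085 FPKM in Fn14 knockout, 2.2 ± 0.17 in Fn14alpha knockout and 1.58 ± 0.218 in WT. It fell by 0.83 in Fn14 knockout (SE 0.11; edgeR, adjusted p = 5.4e-07), where IGF1R rose, and rose by 0.45 ± 0.10 in Fn14alpha knockout (edgeR, adjusted p = 0.000681). Of 7 tested genes that regulate the IGF2 locus or bind its mRNA, 0 were higher and 1 lower with TWEAK, 1 higher and 4 lower in Fn14 knockout, and 2 higher and 3 lower in Fn14alpha knockout (medians -0.16, -0.99 and 0.14), against 6.87%, 52.9% and 42.2% of all genes called. HMGA2 and PLAG1, transcription factors known to raise IGF2, were lower in both knockouts, in which IGF2 was higher. Their part in the level of IGF2 was not tested. HMGA2 fell by 0.28 with TWEAK, by 0.99 in Fn14 knockout and by 2.02 in Fn14alpha knockout (edgeR, adjusted p of 0.0112, 2.95e-11 and 3.91e-16); the TWEAK call was lost without TWEAK replicate 4 (edgeR, adjusted p = 0.0559). PLAG1 fell by 1.57 and 1.06 in the Fn14 and Fn14alpha knockouts (edgeR, adjusted p of 2.37e-07 and 4.47e-05). IGF2BP1, which binds IGF2 mRNA, fell by 2.5 in Fn14 knockout (SE 0.12; edgeR, adjusted p = 1.64e-14). IGF2BP2 rose by 0.24 ± 0.07 in Fn14alpha knockout (edgeR, adjusted p = 0.0125), a call lost without Fn14alpha knockout replicate 1 (edgeR, adjusted p = 0.0565).

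**Figure D5:**
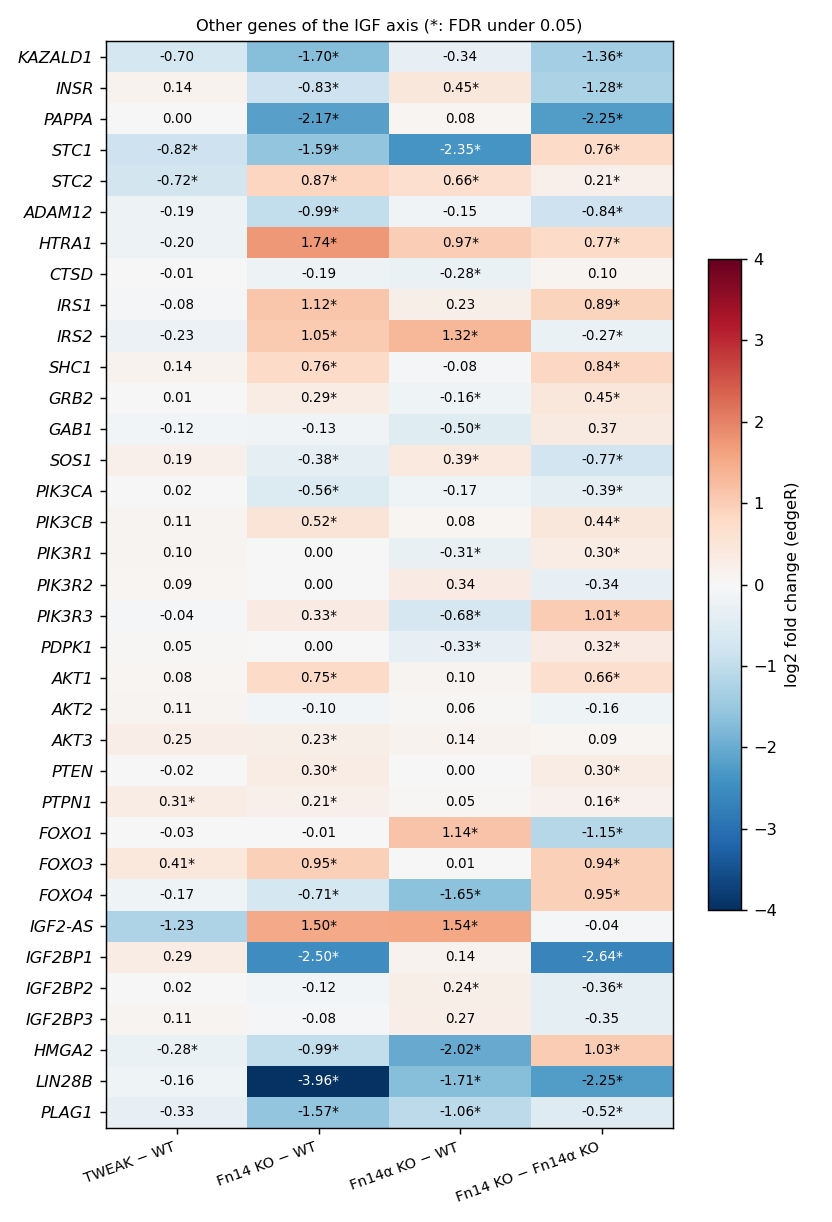
Log2 fold change (edgeR; colour and printed value) of the 35 tested genes of 4 lists (other IGF family genes, proteases and inhibitors, receptor substrates and kinase cascade, IGF2 locus and mRNA binding) in 4 comparisons; stars mark a false discovery rate under 0.05. STC1 is negative in the 3 comparisons with WT, and PAPPA and IGF2BP1 are below -2 where Fn14 knockout is set against WT or against Fn14alpha knockout.

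All 12 listed genes of mannose 6-phosphate sorting, the trafficking route IGF2R serves, were tested. With TWEAK 0 were higher and 1 lower, in Fn14 knockout 1 was higher and 9 lower, and in Fn14alpha knockout 2 were higher and 6 lower (medians 0.03, -0.30 and -0.14). Of all genes 2.05%, 26.3% and 22.2% were called lower. M6PR, the other mannose 6-phosphate receptor, fell by 0.59 in Fn14 knockout and by 0.61 in Fn14alpha knockout (edgeR, adjusted p of 2.29e-07 and 2.56e-07). With its chromosomal neighbours' median subtracted these became 0.03 (edgeR, adjusted p = 0.809) and -0.10 (edgeR, adjusted p = 0.292). The lysosomal protease CTSL fell by 0.29 with TWEAK, by 0.52 in Fn14 knockout and by 0.74 in Fn14alpha knockout (edgeR, adjusted p of 0.0134, 2.02e-06 and 1.84e-08). Its TWEAK call was lost without TWEAK replicate 3 or WT replicate 4 (edgeR, adjusted p of 0.075 and 0.0522). CTSB fell by 0.52 in Fn14 knockout (edgeR, adjusted p = 2.16e-07). GAA, the lysosomal alpha-glucosidase, rose by 0.64 ± 0.09 in Fn14alpha knockout (edgeR, adjusted p = 2.97e-06). GGA1, an adaptor that loads sorting receptors at the Golgi, was higher in Fn14 knockout than in Fn14alpha knockout by 0.32 ± 0.07 (edgeR, adjusted p = 0.000456), but was at -0.02 (edgeR, adjusted p = 0.858) with its neighbours' median subtracted. GNPTAB, which encodes a subunit of the enzyme that adds the mannose 6-phosphate tag, was higher there by 0.29 ± 0.10 (edgeR, adjusted p = 0.0126). The GNPTAB call was lost without Fn14 knockout replicate 4 (edgeR, adjusted p = 0.0629) and with total counts (edgeR, adjusted p = 0.225), and with its neighbours' median subtracted the value was -0.24 (edgeR, adjusted p = 0.0412).

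Of 6 tested cell surface partners of binding proteins, 0 were called with TWEAK by edgeR, against 6.87% of all genes. The unadjusted p of edgeR was under 0.05 for 2 of them. DESeq2 called 0, as did limma at a pseudocount of 0.1 and of 1. In Fn14 knockout 2 were higher and 2 lower, and in Fn14alpha knockout 0 were higher and 3 lower, against 52.9% and 42.2% of all genes called. The list's medians were 0.02, -0.03 and -0.21. ITGB1, the beta-1 integrin through which several binding proteins act on cells, averaged 90.4 ± 11.7 FPKM in Fn14 knockout, 33.7 ± 3.24 in Fn14alpha knockout and 81.1 ± 4.58 in WT. It fell by 1.30 in Fn14alpha knockout (SE 0.09; edgeR, adjusted p = 1.53e-11) and rose by 0.27 ± 0.08 in Fn14 knockout (edgeR, adjusted p = 0.00814). The Fn14 knockout call was lost with total counts (0.16; edgeR, adjusted p = 0.117), with limma on FPKM (0.15 at either pseudocount) and with the neighbours' median subtracted (0.05; edgeR, adjusted p = 0.693). TMEM219, a receptor of IGFBP3, fell by 0.41 in Fn14alpha knockout (SE 0.11; edgeR, adjusted p = 0.00496), where IGFBP3 was higher. LRP1, an endocytic receptor, fell by 0.60 and 0.66 in the Fn14 and Fn14alpha knockouts (edgeR, adjusted p of 0.00112 and 0.000696); with its neighbours' median subtracted it was at -0.20 in Fn14alpha knockout (edgeR, adjusted p = 0.292). CAV1, a caveolar coat protein, rose by 1.18 ± 0.07 in Fn14 knockout (edgeR, adjusted p = 3.07e-13). Of 10 tested FOXO target genes, 1 was higher and 4 lower with TWEAK, 5 higher and 5 lower in Fn14 knockout, and 3 higher and 5 lower in Fn14alpha knockout (medians -0.14, 0.01 and -0.25). Of all genes 6.87%, 52.9% and 42.2% were called. TRIB1, a pseudokinase, rose by 0.59 ± 0.09 with TWEAK and fell by 0.84 and 0.94 in the Fn14 and Fn14alpha knockouts (edgeR, adjusted p of 0.000114, 2.23e-07 and 8.65e-08). TXNIP, an inhibitor of thioredoxin, rose by 0.78 ± 0.06 in Fn14 knockout (edgeR, adjusted p = 1.4e-10). Of the other targets, CITED2 and BCL6, both transcriptional regulators, fell by 0.41 and 0.44 with TWEAK (edgeR, adjusted p of 0.00128 and 0.0302), and the sestrin gene SESN1 fell by 0.59 in Fn14alpha knockout (edgeR, adjusted p = 5.12e-06). The BCL6 call was lost without TWEAK replicate 1, 2 or 4 or WT replicate 1, 2 or 3 (edgeR, adjusted p of 0.0549 to 0.107) and with the replicate block (edgeR, adjusted p = 0.0651). BCL2L11, which encodes the pro-apoptotic protein BIM, fell by 0.85 in Fn14 knockout (edgeR, adjusted p = 9.48e-07). CCNG2 was higher by 0.70 ± 0.07 in Fn14 knockout than in Fn14alpha knockout (edgeR, adjusted p = 9.35e-09).

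For the 7 members whose group means spanned at least 1 log2 unit, the genes with the most similar pattern were sought among 11481 genes, as the root-mean-square difference of centred log2 CPM over the 16 libraries. The span was widest for IGFBP7, at 2.92, and for IGFBP5, at 2.70, and narrowest among the 7 for IGF1R, at 1.04. Nearest to IGFBP5 were TENM2, CCN2 and EDIL3, at 0.207, 0.396 and 0.436. CCN2, which encodes connective tissue growth factor and carries an IGFBP-type domain, averaged 29.2 FPKM in TWEAK, 104.0 in Fn14 knockout, 141.0 in Fn14alpha knockout and 38.0 in WT. Nearest to IGF2 were PLAT, ATP8B1 and COL4A1, at 0.145, 0.172 and 0.19, and nearest to IGFBP3 were ADM, MDFI and POLR3G, at 0.267, 0.27 and 0.272. IGFBP7 had HMGN5, DCN and CDA, at 0.374, 0.405 and 0.407. DCN, the matrix proteoglycan decorin, averaged 2.81 FPKM in TWEAK, 0.995 in Fn14 knockout, 0.473 in Fn14alpha knockout and 3.79 in WT. IGF1R had JADE3, NBPF15 and IPO9, at 0.0989, 0.105 and 0.107, and IGF2R had CASP10, ITGA1 and IL1RAP, at 0.131, 0.133 and 0.134. For IGFBP2, on its few counts, the nearest were CERS1, ZNF853 and SCML2, at 0.461 to 0.523.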

How the data were processed

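Poly(A) RNA of 16 libraries was sequenced. The authors deposited a table with a raw read count per gene and library, with no normalization, and FPKM values that they made from those counts, per the file headers. The submitters' processing notes name HTSeq 0.6.1, HISAT2 2.0.1, cutadapt 1.9.1, FastQC 0.10.1 and, without a version, DESeq2, and the builds hg38 and GRCh38.p13; what each was used for is not stated there. Strand setting and annotation release were not found in the sources. A gene's count cannot separate its isoforms.

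Counts were tested with edgeR 4.0.16 in R 4.3.3 (quasi-likelihood F test, two-sided, TMM scaling, filterByExpr by group, robust estimation, 1 mean per group over all 16 libraries, common dispersion 0.0075). Calls used a false discovery rate of 0.05 (Benjamini-Hochberg) over 16029 genes. A log2 fold change divided by the square root of F gave its standard error. The count test was first tried on simulated data. Levels are the authors' deposited FPKM as mean ± SD, and log2 fold changes come from the counts. Libraries were also compared by an exact permutation test. Alternatives used limma 3.58.1 on log2(FPKM + 0.1) and log2(FPKM + 1), and DESeq2 1.42.0. Plots were drawn with matplotlib 3.10.9. Replicate pairs differed by more than sampling noise (chi-square per degree of freedom of 2.3 to 39 over 24 pairs). All columns of sample values were used.

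The members were taken by symbol with no threshold on values, but both they and the lists were chosen with earlier results of these data known. Named were all members; per list and comparison, up to 3 called genes with the largest log2 fold change and a mean of at least 1 FPKM in 1 group; and, per member whose group means span at least 1 log2 unit, the 3 tested genes nearest in pattern. Genes named outside this rule are marked as such or are given at their counts. Neighbours are the 50 nearest tested genes on each side with a mean log2 CPM of at least 2. Some genes of the lists are not reported here.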

Additional observations from a re-analysis of the deposited data

Results flagged for a closer look

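IGFBP3 was called in opposite directions in the knockouts, at -0.98 in Fn14 knockout and 1.18 in Fn14alpha knockout against WT (log2), and the difference between them was itself tested: -2.15 ± 0.18 (edgeR, adjusted p = 4.18e-10). It lay between -2.30 and -1.05 over the alternatives tried, the smallest size with log2(FPKM + 1), which understates changes of low genes.

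A single library was far from the other 3 of its group in 2 of the 36 sets of 4 libraries looked at. A chance rate of 1 in 20 would give about as many. The sets are 9 genes in the same 16 libraries and so not independent, and whether chance accounts for these 2 was not tested. Both sets concern IGF2R, which read 4.08 FPKM in Fn14 knockout replicate 1, the lowest of its group, and 10.27 FPKM in Fn14alpha knockout replicate 1, the highest of its group. Fn14 knockout replicate 1 also stands apart by gene length, and IGF2R is the longest of the 9 genes. Without that library and WT replicate 4, IGF2R was at -1.09 in Fn14 knockout minus WT (edgeR, adjusted p = 9.24e-15).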

How the results depend on the processing

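Of the values of the 9 genes, 646 in all were recomputed under other scalings, filters, tools and left-out libraries, and the direction and the side of the threshold held in 142 of 161 for TWEAK minus WT, 157 of 161 for Fn14 knockout minus WT, 155 of 162 for Fn14alpha knockout minus WT and 148 of 162 between the knockouts. The number of members called with TWEAK was 1; it was 2 with total counts, 2 with limma at either pseudocount, 0 with the replicate block and 0 to 0 when 1 library was left out. IGFBP2 with TWEAK was -0.12 without TWEAK replicate 4 and up to 0.59 without another library. IGFBP5 with TWEAK turned to -0.02 with total counts, -0.05 without both libraries that stand apart, -0.08 without TWEAK replicate 3 (up to 0.12 without others), -0.05 without WT replicate 4, and -0.03 and -0.02 with limma at a pseudocount of 0.1 and 1. With the neighbours' median subtracted, M6PR was 0.03 in Fn14 knockout minus WT, and between the knockouts STC2 was -0.05, IGF2BP2 0.22, GGA1 -0.02 and GNPTAB -0.24. Each of these had the other sign before, at -0.59 for M6PR, 0.21 for STC2, -0.36 for IGF2BP2, 0.32 for GGA1 and 0.29 for GNPTAB. IGF2BP2 was called in both directions (edgeR, adjusted p = 0.000206 before and 0.0158 after). The causes were not tested. Replicate numbers did not pair the libraries: correlations of same-numbered deviations ran from -0.52 to 0.29, and at most 1 of 4 correlated best with its own number. With the replicate block 893, 8205, 6454 and 9241 genes were called in TWEAK, Fn14 knockout and Fn14alpha knockout against WT and between the knockouts, against 1101, 8472, 6771 and 9489 without it, and IGFBP6 with TWEAK had an adjusted p of 0.0832 (edgeR). Depth limits IGFBP2 (5 to 35 counts) and IGFBP7 in Fn14alpha knockout.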
